A study of Mus musculus with 9 samples.

Results

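Testis RNA of Prm1-/- males was compared with that of wild-type (WT) males, 6 of the 9 libraries of the series. The members were the 3 Prm1-/- and the 3 WT males, and a row of the count table entered the comparison when it held at least 10 counts in at least 3 of these 6 libraries. Of 50433 rows listed, 16402 entered. Of these, 771 carry an Ensembl gene identifier and can be named, and 15631 carry an MSTRG identifier, the label StringTie gives to a locus that it assembles from reads and that the table pairs with no gene name or position.

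All males are given as C57BL/6, and testes were taken without the tunica albuginea, the fibrous capsule of the organ. The Prm1-/- males carry 2 edited copies of Prm1, the Prm1+/- males carry 1 and the WT males carry none. Levels of the Prm1+/- males are shown beside the others. Their libraries were also part of the fit behind the test, where they entered the scaling and the estimate of spread. The edit was made with CRISPR-Cas9 in zygotes of a B6D2F1 cross, and founders were crossed to C57BL/6J. Animals of backcross generation 4 onward, aged 8 to 13 weeks, were used in the study, whose methods give no age for each library. A single edited allele was followed, so the line stands for 1 deletion. RNA was measured by QuantSeq 3′-mRNA-sequencing, in which each library is made from the 3′ ends of polyadenylated transcripts. The comparison asks which testis transcripts differ in level when Prm1 is lost.

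Protamines are small, arginine-rich proteins that replace most histones in elongating spermatids and pack sperm DNA tightly. Mice use a pair of them, PRM1 and PRM2, after an intermediate step with the transition proteins. Transcription falls silent as the chromatin condenses, so that late spermatids depend on transcripts made earlier, and whole testis RNA holds these together with RNA of spermatogonia, spermatocytes and somatic cells. In such bulk samples, fewer cells of a type and less RNA per cell cannot be told apart.

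The sequence shown is the coding sequence that the edit shortens, since it defines the 2 genotypes compared. It is the GENCODE vM21 sequence of Prm1 (GRCm38, chr16, minus strand), and capitals mark coding bases 51 to 125, which the allele lacks:

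Prm1 coding sequence: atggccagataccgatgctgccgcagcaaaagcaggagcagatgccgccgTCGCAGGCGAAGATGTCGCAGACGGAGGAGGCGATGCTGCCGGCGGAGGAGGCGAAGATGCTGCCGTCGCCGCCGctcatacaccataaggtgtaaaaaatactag

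The deletion removes 75 of 156 coding bases, or 25 codons, and keeps the reading frame. In the genome it spans chr16:10796515-10796681, 167 bp that take the end of exon 1, the intron and the start of exon 2. Of 28 arginine codons, 8 remain. Prm1 has no row under its Ensembl identifier, so its counts could not be used to check the genotype labels. An MSTRG locus may hold its reads.

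Totals of estimated counts ran from 3681615 to 5555676 in WT and from 3792167 to 11036146 in Prm1-/- libraries. The deepest was that of Prm1-/- male 1. Levels are given as counts per 1000000 counts of the library (CPM), after TMM scaling with factors from 0.975 to 1.08. A count of 3, taken as the least that can be told from 0, was at most 0.815 CPM in a WT library. Intervals and this floor cover counting error only. No library stood apart, the mean correlation of log2 CPM with the other 5 running from 0.889 to 0.912 over the tested rows, and 0 pairs of libraries held identical values.

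Rows with an Ensembl identifier held a small share of the counts, which is not the share of known genes in testis RNA. The 34 spermatid markers and the 10 immune genes that the study named have no such row. MSTRG loci may hold their reads. Rows with an Ensembl identifier held 0.507%, 0.552% and 0.409% of all counts in the 3 WT males and 0.483%, 0.479% and 0.555% in the 3 Prm1-/- males. The groups overlapped, with means of 0.489% ± 0.0731 and 0.505% ± 0.0428 (SD, n = 3 each, two-sided exact permutation p = 0.8, where 0.1 is the smallest this design can give). Of 24236 Ensembl rows listed, 771 or 3.18% entered the comparison, against 59.7% of the MSTRG rows. Their median level was 2.67 CPM, within 0.995 to 30.1, and that of the MSTRG loci was 15.5 CPM. Among the 770 with an annotation, 714 were protein-coding genes and 29 were long intergenic non-coding RNAs. These levels are not divided by transcript length.

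The edgeR quasi-likelihood test called 29 loci higher and 1 lower in Prm1-/- testis (adjusted p under 0.05 and absolute log2 fold change above 1), and all 30 were MSTRG loci. This is 0.183% of the rows tested, 0.177% for the higher calls and 0.0061% for the lower one. Of the Ensembl-identified genes, 0 were called in either direction by this test, the smallest adjusted p among them being 0.123. At an unadjusted p under 0.05 there were 18 Ensembl genes, 7 higher and 11 lower, which is 2.33% of those tested beside 4.58% of all rows (3.07% higher and 1.51% lower). DESeq2 fitted to the same 9 samples called 114 loci higher and 24 lower, 1 of them an Ensembl gene. Without Prm1-/- male 1 the edgeR counts were 57 higher and 11 lower, and without Prm1-/- male 2 they were 16 and 0. The lower count was 8 without Prm1-/- male 3, 5 without WT male 2 and 2 without WT male 1 or WT male 3.

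**Figure D1:**
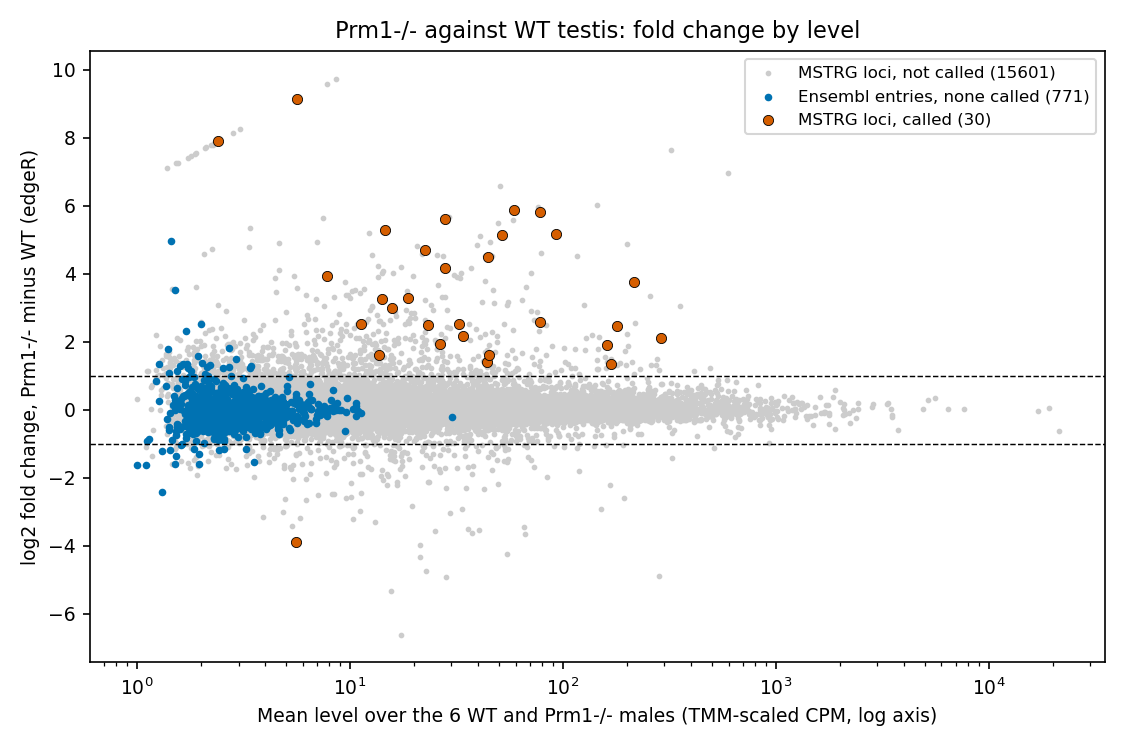
Each point is a tested row, placed by its mean TMM-scaled CPM over the 6 males (log axis) and its log2 fold change, Prm1-/- minus WT. The 30 called loci (orange) are MSTRG loci, and the 771 Ensembl genes (blue) lie at the low end of the level axis, none of them called. Dashed lines mark a log2 fold change of 1 and -1, and fold changes of rows at 0 counts in a group depend on the prior count of the fit.

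At all 29 higher loci every Prm1-/- male was above every WT male, beside 6.25% of all tested rows. The test that chose these loci favours such a gap. Of these, 2 had 0 counts in every WT male, and their mean of 11.2 and 4.80 CPM in Prm1-/- testis is at least 13.8-fold and at least 5.89-fold higher than the floor of 3 counts in the WT library where that floor is highest. In the other 27 the log2 fold change ran from 1.34 to 5.88 with a median of 2.98, and it was over 3 in 13 of them. Their Prm1-/- level exceeded 100 CPM in 10 of the 29, lay between 10 and 100 CPM in 18 and was under 10 CPM in 1. In 15 the mean level was above that of every Ensembl gene tested. The median coefficient of variation among Prm1-/- males was 9.93% at these loci, and the test that chose them favours a small spread. The highest of the 3 Prm1-/- values was in male 1 for 9 loci, in male 2 for 11 and in male 3 for 9. Loci high in a single male are disfavoured by the same test, so this split does not show how far the calls depend on 1 male.

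The locus MSTRG.17548, which had the smallest adjusted p, measured 5.61, 4.30 and 5.17 CPM in WT males and 175, 184 and 181 CPM in Prm1-/- males. The groups lay far apart, with a log2 fold change of 5.15 ± 0.27 (SE, adjusted p = 0.000868). The Prm1+/- males, at 3.40, 6.69 and 5.26 CPM, stood with WT. This was the common pattern: at 22 of the 29 loci every Prm1+/- male was below every Prm1-/- male and the Prm1+/- values overlapped or lay under those of WT. The 29 loci were chosen for Prm1-/- values above WT, which favours Prm1+/- values below Prm1-/-. The share of all tested rows with this order was not counted. Over these 22 loci the median of the mean levels was 5.87 CPM in WT, 6.29 CPM in Prm1+/- and 59.7 CPM in Prm1-/- testis.

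At 6 other loci the Prm1+/- males were all above WT and reached the range of the Prm1-/- males or exceeded it. One of these, MSTRG.23703, measured 0.832, 1.26 and 0.738 CPM in WT, 19.5, 17.7 and 18.1 CPM in Prm1+/- and 15.0, 14.3 and 14.4 CPM in Prm1-/- males. The WT males were low and both edited genotypes were high, with a log2 fold change between Prm1-/- and WT of 3.94 ± 0.24 (SE, adjusted p = 0.00106). Both loci at 0 counts in WT belong to this group of 6. At the remaining locus the Prm1+/- males lay between the other genotypes without overlap.

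The locus called lower, MSTRG.15223, measured 10.4, 8.34 and 12.5 CPM in WT males and 0.371, 0.869 and 1.01 CPM in Prm1-/- males. Every Prm1-/- male was below every WT male, by a log2 fold change of -3.89 ± 0.44 (SE, adjusted p = 0.0160). The Prm1+/- males were as low, at 0.849, 0.372 and 0.569 CPM. The Prm1-/- libraries held 12 counts of this locus in all and the WT libraries 151. Its adjusted p was 0.0532 without WT male 3 and 0.0919 without Prm1-/- male 2.

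**Figure D2:**
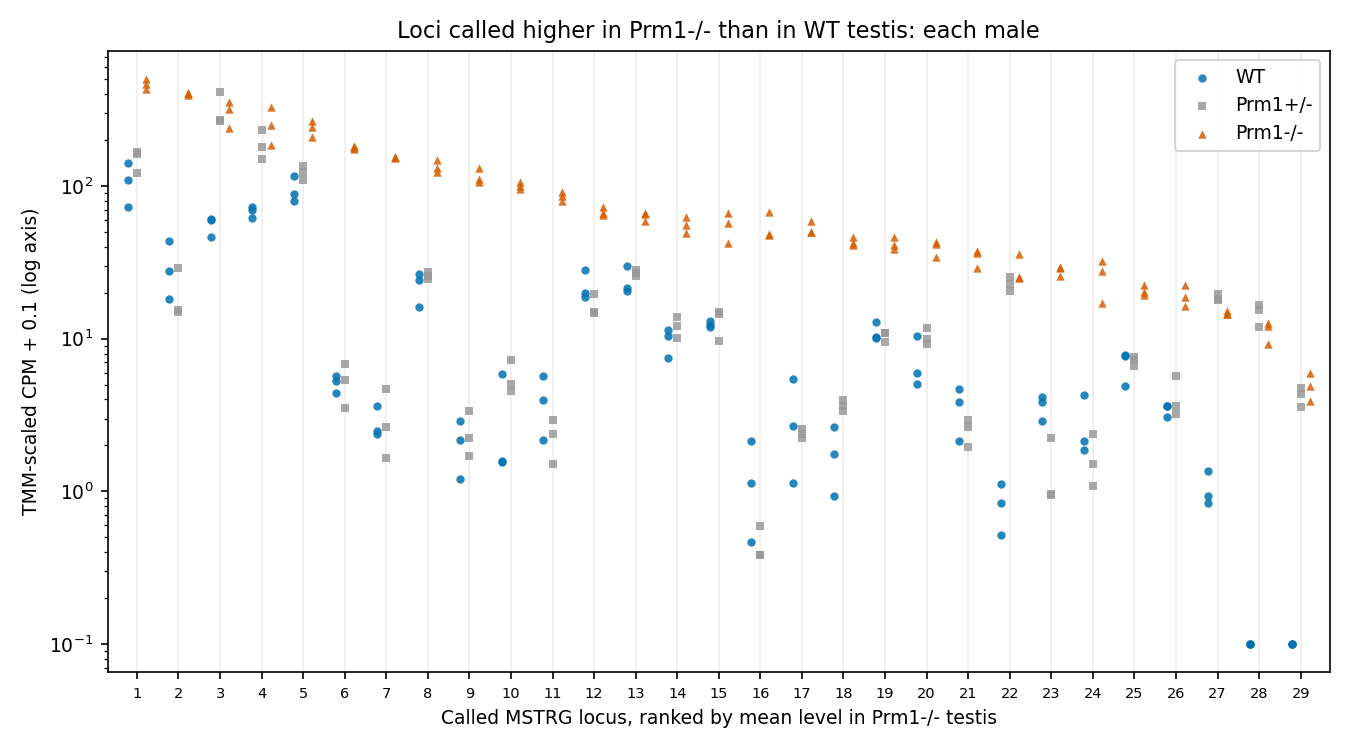
The 29 loci called higher, ranked by their mean level in Prm1-/- testis, with TMM-scaled CPM plus 0.1 on a log axis and 1 symbol for each male of the 3 genotypes. The Prm1-/- males (triangles) lie above the WT males (circles) at all 29, and the Prm1+/- males (squares) lie beside WT at 22 and reach the Prm1-/- values at 6.

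A large fold change alone did not separate the called loci. The log2 fold change was above 3 at 112 MSTRG loci and the test called 15 of them. Of the 97 not called, 56 differed over 3-fold (CPM plus 1) between males of a single genotype, and so did 1 of the 15 called. The test itself favours a small spread, and 65 of the 97 were free of overlap between WT and Prm1-/- males. Below WT, 22 loci were past -3, of which 1 was called. Of the other 21, 17 differed over 3-fold between males of a single genotype and 8 were free of overlap. Over all tested rows, this spread between males of a genotype was seen in 88 Ensembl genes in WT and 41 in Prm1-/- testis, 11.4% and 5.32% of them, and in 13.9% and 9.07% of MSTRG loci.

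Calls were counted by level. Of 527 rows below 2 CPM, 0 were called, with a median standard error of 0.77 on the log2 scale. Between 2 and 5 CPM 1 of 3285 was called, between 5 and 20 CPM 9 of 5785, between 20 and 100 CPM 15 of 4746 and from 100 CPM upward 5 of 2059, where the median standard error was 0.187. Of the 771 Ensembl genes, 148 were in the lowest of these ranges and 542 in the next. Their median standard error was 0.396 against 0.298 for MSTRG loci.

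Among Ensembl genes the smallest p belonged to Trim68 (ENSMUSG00000073968, chr7:102677582-102687327), which encodes a RING-type ubiquitin ligase of the TRIM family. It measured 0.208, 0 and 0 CPM in WT males, 0.141, 0.124 and 0 CPM in Prm1+/- males and 2.59, 2.61 and 3.29 CPM in Prm1-/- males. All of the WT signal is 1 count, against 28, 12 and 13 counts in the Prm1-/- libraries, a depth-scaled ratio of 38.9 with an exact 95% interval of 6.68 to 1564 that covers counting error alone. These values describe a gene picked for its small p, which met the count minimum through the Prm1-/- libraries alone. In edgeR its adjusted p was 0.123, and it was past 0.05 in DESeq2 with 9 samples (adjusted p = 0.0294). Over all alternatives its adjusted p ran from 0.0179 to 0.52.

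The other genes among the 10 with the smallest p on the higher side, by the rule used for naming, had adjusted p of 0.766 or more. Of the 10, 7 met the count minimum through the 3 Prm1-/- libraries alone (Trim68, Ptges, Cd40, Cwc22, Tnip3, Hivep2 and AI481877), so that the rule itself required them to be high there, and their values are given as a description. Parp14 (chr16:35832874-35871544), an ADP-ribosyltransferase that interferon induces, measured 2.70, 1.52 and 1.66 CPM in WT and 3.71, 4.34 and 6.59 CPM in Prm1-/- males, without overlap (log2 fold change 1.29 ± 0.37, SE). It was the only 1 of the 21 tested Ensembl genes of chromosome 16, which also holds Prm1, with an unadjusted p under 0.05. Over all tested Ensembl genes that share was 2.33%, and chromosomes 2, 3 and 7 held 3 such genes each. A count of 1 cannot be told from that share. Cd40, the co-stimulatory receptor of B cells and other antigen-presenting cells, was at 0, 0.759 and 0 CPM in WT and at 2.13, 2.82 and 3.29 CPM in Prm1-/- males. These are 3 counts against 49, a depth-scaled ratio of 11.98 with an exact 95% interval of 3.87 to 60.1. The Prm1+/- males spread from 0.283 to 1.99 CPM, under every Prm1-/- male.

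Tnip3, whose product binds the NF-kappaB inhibitor TNFAIP3, measured 0.832, 0.506 and 0.369 CPM in WT and 1.76, 3.26 and 5.32 CPM in Prm1-/- males (log2 fold change 2.53 ± 1.08, SE). A single Prm1+/- male reached 2.99 CPM while the other two were at 0.141 and 0.248 CPM. Ptges, prostaglandin E synthase, was tighter, at 1.66, 1.26 and 1.11 CPM in WT and 2.87, 3.04 and 2.53 CPM in Prm1-/- males (1.06 ± 0.31). Hivep2, a zinc finger transcription factor, was at 0.832, 1.77 and 1.11 CPM in WT and at 1.20, 4.13 and 3.80 CPM in Prm1-/- males, and its groups overlapped.

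Of the rest on this side, Cwc22, a splicing factor, was at 0.554 to 1.26 CPM in WT and at 1.67 to 3.04 CPM in Prm1-/- males. Slc7a14, of the cationic amino acid transporter family, ranged from 2.21 to 3.12 CPM in WT and from 3.69 to 4.45 CPM in Prm1-/- males, and its Prm1+/- values of 3.96, 3.59 and 3.98 CPM lay above every WT value. Elavl4, a neuronal RNA-binding protein, ranged from 2.02 to 3.12 CPM and from 3.61 to 4.56 CPM. For AI481877 the ranges were 0 to 0.923 CPM and 1.297 to 2.82 CPM. In all, 9 of these 10 genes did not overlap between WT and Prm1-/- males, and they were picked for their small p. Over all 771 genes, 26 or 3.37% lay wholly above WT and 38 or 4.93% wholly below, where all tested rows gave 6.25% and 4.58%.

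On the lower side the smallest p belonged to Nceh1, a neutral cholesterol ester hydrolase. Its level was 4.16, 4.05 and 5.35 CPM in WT and 1.85, 2.17 and 2.03 CPM in Prm1-/- males (log2 fold change -1.17 ± 0.29, SE, adjusted p = 0.558). The Prm1-/- males were close together at less than any WT value, and the Prm1+/- males, at 2.55, 1.98 and 1.42 CPM, were with them. Itpripl2, related to a protein that interacts with the inositol trisphosphate receptor, also had Prm1+/- and Prm1-/- values under every WT value: 2.91, 2.02 and 2.77 CPM in WT, 1.42, 1.24 and 1.57 CPM in Prm1+/- and 1.297, 1.09 and 1.01 CPM in Prm1-/- males (-1.15 ± 0.32, adjusted p = 0.671).

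Of the next genes, Ccn4, a secreted matricellular protein, ranged from 3.32 to 4.55 CPM in WT and from 1.77 to 2.50 CPM in Prm1-/- males. Col6a5, a collagen VI chain, ranged from 3.95 to 5.31 CPM and from 2.17 to 3.06 CPM. Sh3pxd2a, a scaffold of podosomes, ranged from 2.95 to 3.53 CPM and from 1.52 to 1.95 CPM. In each of these 3 genes the groups stood apart, and in each the adjusted p was 0.953 or more.

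The remaining genes of this side encode receptors and a transcriptional regulator. Trem2, a receptor of macrophages and microglia, measured 4.37, 3.03 and 3.14 CPM in WT and 0.927, 2.39 and 1.52 CPM in Prm1-/- males (-1.17 ± 0.41, SE). Il6ra, the interleukin 6 receptor, ranged from 2.91 to 4.80 CPM and from 2.13 to 2.79 CPM. Edar, the ectodysplasin receptor, ranged from 2.58 to 3.74 CPM and from 1.27 to 2.17 CPM. Neto2, an auxiliary subunit of kainate receptors, ranged from 2.70 to 4.05 CPM and from 1.27 to 1.95 CPM. Zfp568, a KRAB zinc finger protein, ranged from 4.99 to 7.08 CPM and from 3.04 to 4.13 CPM. All 10 lay wholly below WT, as their choice by p favours, and 0 of them passed the adjusted test.

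**Figure D3:**
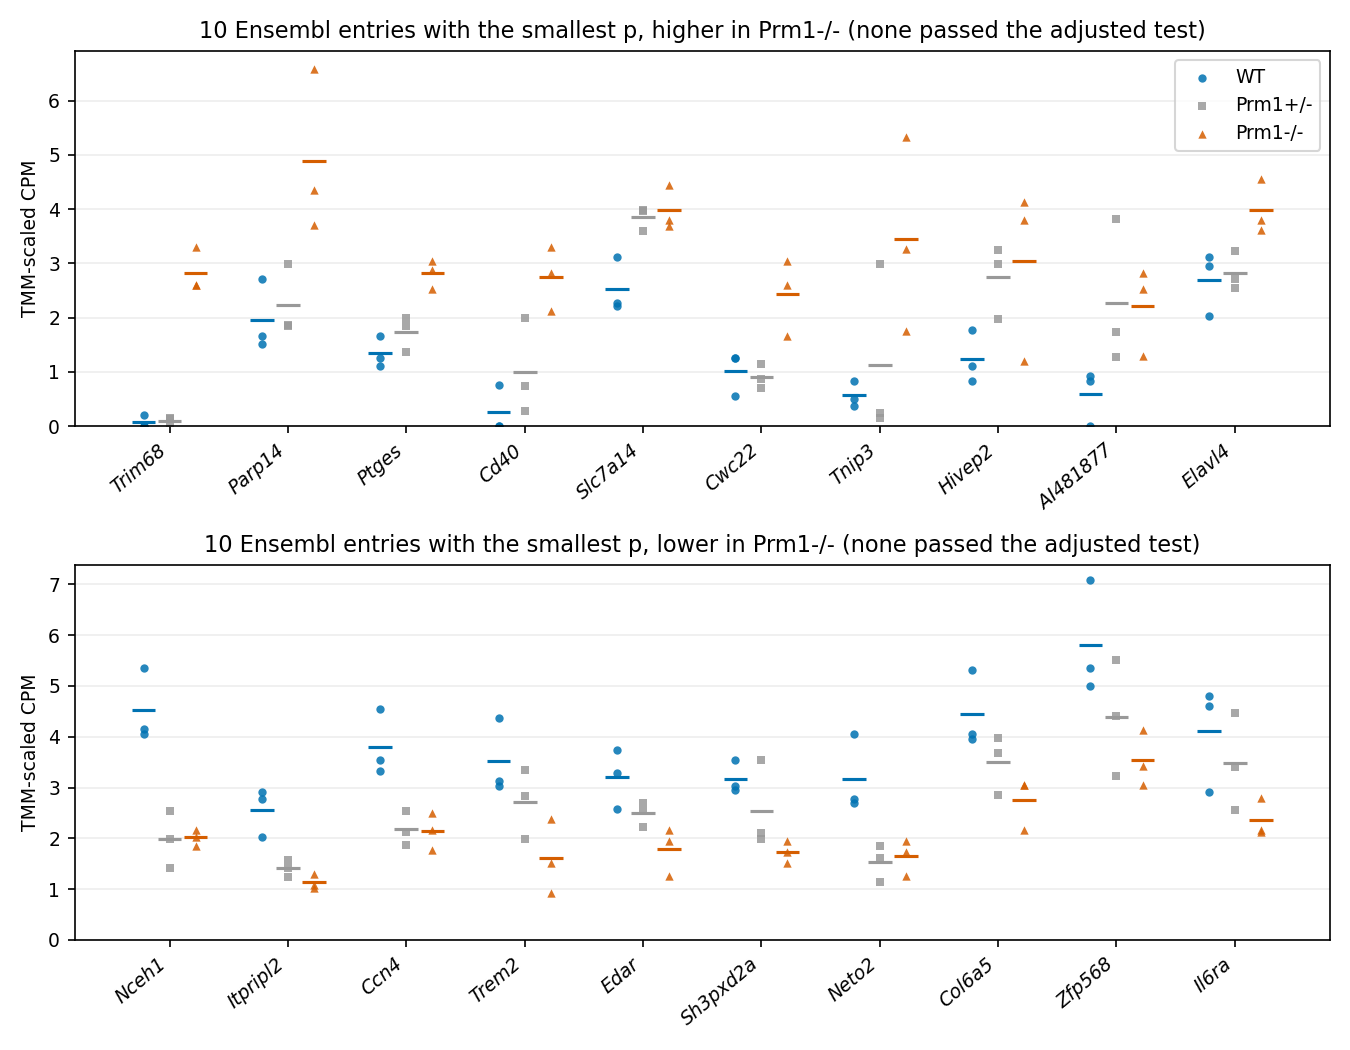
TMM-scaled CPM of the 10 Ensembl genes with the smallest p on the higher side (top) and on the lower side (bottom), with 1 symbol for each male and a bar at the mean of 3. The Prm1-/- males are separate from WT in 9 of the 10 genes above and in all 10 below, at levels of 0 to 7.08 CPM, and 0 of the 20 passed the adjusted test.

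Leaving out 1 male brought 3 other Ensembl genes to a call, which were singled out after their values were seen. Pnpla6, a phospholipase, measured 4.57, 0.506 and 0.369 CPM in WT and 3.61, 3.91 and 3.55 CPM in Prm1-/- males, and it was called higher without WT male 1. Col6a3, a collagen VI chain, was at 4.99, 7.33 and 4.24 CPM in WT and at 4.82, 0 and 0 CPM in Prm1-/- males, and it was called lower without Prm1-/- male 1. Micall2 was at 2.70, 2.78 and 2.95 CPM in WT and at 0, 0 and 3.29 CPM in Prm1-/- males, and it was called lower without Prm1-/- male 3. In each the male left out was at or beyond the levels of the other genotype, and with all males their adjusted p was 1.

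Of the 10 Ensembl genes with the highest mean CPM, which were counted most deeply, 8 are described. D10Wsu102e, the highest, measured 28.9, 34.1 and 34.1 CPM in WT and 27.3, 23.9 and 32.4 CPM in Prm1-/- males (log2 fold change -0.22 ± 0.16, SE). The groups overlapped. Scn8a, a voltage-gated sodium channel, ranged from 9.04 to 14.4 CPM in WT and from 9.77 to 11.9 CPM in Prm1-/- males. Prkdc, the catalytic subunit of the DNA-dependent protein kinase, ranged from 7.93 to 13.9 CPM and from 8.47 to 13.9 CPM.

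Some of these well-counted genes jumped between males of a genotype. D1Ertd622e measured 13.5, 14.7 and 2.40 CPM in WT and 2.69, 13.03 and 17.5 CPM in Prm1-/- males, while all Prm1+/- males were between 3.27 and 3.96 CPM. Vps13d, a lipid transport protein, was at 11.9, 13.1 and 9.23 CPM in WT but at 1.58, 9.77 and 11.1 CPM in Prm1-/- males. Lyst, which acts in lysosomal trafficking, ranged from 6.27 to 14.7 CPM in WT and from 8.47 to 16.7 CPM in Prm1-/- males. Usf3 and Igsf9b overlapped between the genotypes too.

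**Figure D4:**
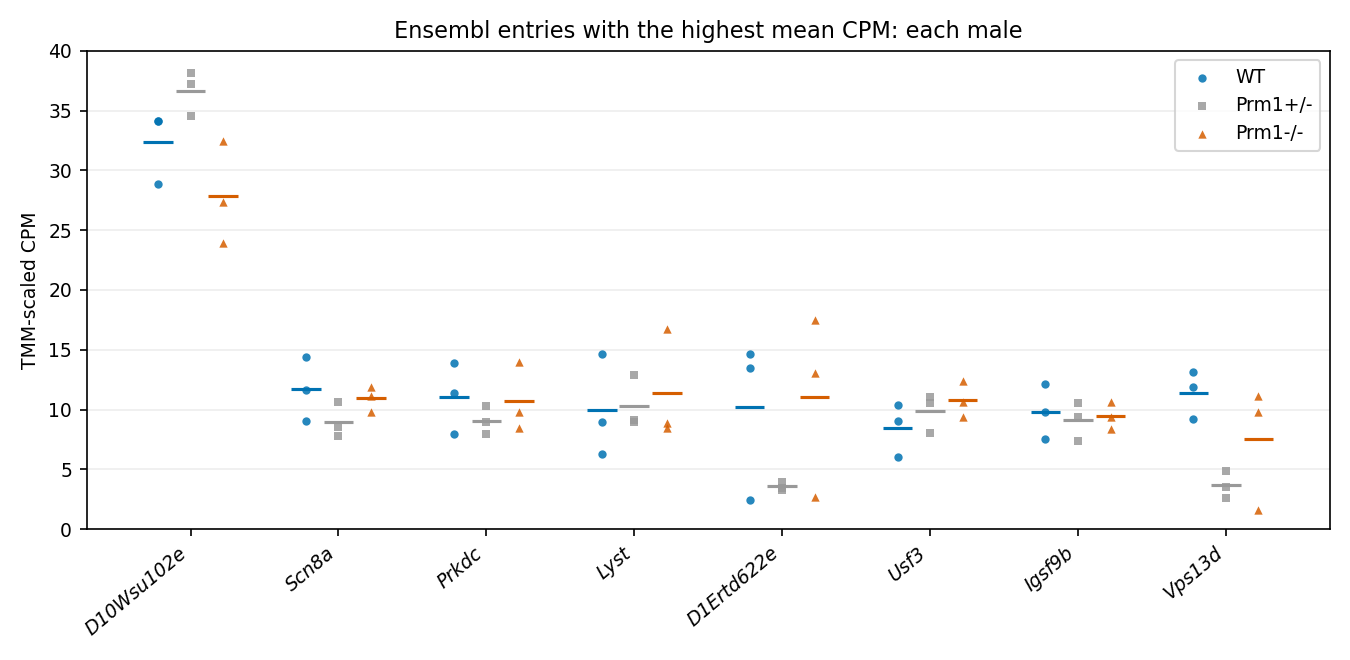
TMM-scaled CPM of 8 of the 10 Ensembl genes with the highest mean level over the 6 WT and Prm1-/- males, with 1 symbol for each male and a bar at the mean of 3. WT and Prm1-/- males overlap in all 8, and D1Ertd622e and Vps13d each have males far from the rest of their genotype.

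Gene lists were read by how many of their genes had an Ensembl row. Of 16 sperm nuclear proteins and relatives, H2afb2 alone had one, with 4 counts in WT and 5 in Prm1-/- libraries. Of the 10 immune genes that the study named from these samples, 0 had a row, and of 37 antioxidant genes 2 had one, both at 0 counts. Of 183 cell type markers 50 had a row and 11 were tested, none of them called. Spermatocyte and spermatid markers, 19 and 34 genes, had none, so the label of testis is that of the study and was not checked with markers of these cells.

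Interferon-stimulated genes, which cells switch on in antiviral and inflammatory responses, had the largest number of rows among the response lists. Of 37 genes 20 had a row and 3 were tested, and 0 of these were called. Oasl2, of the oligoadenylate synthetase family, measured 2.70, 3.29 and 2.58 CPM in WT and 4.08, 4.13 and 3.29 CPM in Prm1-/- males (log2 fold change 0.43 ± 0.25, SE, adjusted p = 1). Its lowest Prm1-/- value lay just above its highest WT value, while on library totals without TMM factors the groups overlapped. Mx1, a dynamin-like antiviral protein, was at 2.70, 0 and 0 CPM in WT and at 1.76, 2.61 and 2.53 CPM in Prm1-/- males. Xaf1, a pro-apoptotic protein, ranged from 2.08 to 2.95 CPM and from 1.52 to 3.55 CPM. The median log2 fold change of the 3 was 0.43, beside 0.02 over all rows tested.

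Summed over all 20 rows and expressed as CPM of each library total, the interferon list gave 15.0, 13.6 and 10.1 CPM in WT males and 19.5, 24.2 and 20.8 CPM in Prm1-/- males (12.9 ± 2.54 and 21.5 ± 2.43, SD, n = 3 each). Every Prm1-/- male was above every WT male, and the Prm1+/- males, at 15.5, 14.0 and 19.5 CPM, spanned the gap. The sums rest on 177 counts in WT and 409 in Prm1-/- libraries. Of the 20 rows 15 had any count in these libraries, and 3 met the count minimum. The mean CPM in Prm1-/- males was higher for 14 and lower for 1, and only Gbp7 and Ifit2 were free of overlap. Of all tested Ensembl genes, 3.37% lay wholly above WT and 4.93% wholly below, on TMM-scaled CPM. Gbp7 and Ifit2 are not among the tested genes, and the share over untested rows on library totals was not counted. The share with a higher mean over all Ensembl rows was not counted. Gbp7, an interferon-induced GTPase that did not pass the count minimum, measured 1.69, 2.17 and 0.540 CPM in WT and 3.26, 2.74 and 2.37 CPM in Prm1-/- males. Ifit2, which binds viral RNA, had 0 counts in every WT library and 5, 5 and 6 in the Prm1-/- libraries. Of Gbp7's family, Gbp2 overlapped, at 1.48, 0 and 0.720 CPM in WT and 1.27, 2.74 and 0 CPM in Prm1-/- males, and Gbp4 was the gene with a lower mean, at 0.635, 0.815 and 0 CPM against 0.0906, 0.421 and 0 CPM.

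Sums over markers of macrophages and other leukocytes are set beside these. Of 28, 12 had a row, 5 had any count in these 6 libraries and 0 were tested, and their sum was 2.75, 2.99 and 2.34 CPM in WT and 3.08, 4.21 and 3.16 CPM in Prm1-/- males. The groups did not overlap, with a gap from 2.99 to 3.08 CPM, and the sums rest on 37 and 66 counts. Of the 5 markers with counts, 3 had a higher and 2 a lower mean CPM in Prm1-/- males and 0 were free of overlap. Ptprc, the pan-leukocyte antigen CD45 and the most counted of them, was at 1.90, 1.90 and 1.62 CPM in WT and at 0.997, 1.68 and 1.85 CPM in Prm1-/- males. The macrophage receptor Trem2, which is not on this list, lay wholly below WT, as given above, and Cd3g was at 0 in WT and Cd3e, Cd8a and Cd79a, of T and B cells, were at 0 in every library. The part of leukocytes in the interferon sums was not tested. Among 22 lists and gene families with at least 20 counts, these 2 were the only ones whose sums lay wholly above WT, and 0 lay wholly below. Of single tested rows, 6.25% lay wholly above WT and 4.58% wholly below on TMM-scaled CPM, which is an unlike measure to these sums. The lists were fixed with earlier results of these data known, and the study had named immune genes from these samples. No p is given for these sums.

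Sums of endothelial, stromal and spermatogonial markers overlapped between WT and Prm1-/- males. Endothelial markers gave 18.6 to 21.2 CPM in WT and 18.5 to 21.0 CPM in Prm1-/- testis, with Kdr and Flt1, the receptors of vascular endothelial growth factor, at 4.30 to 4.98 and 5.61 to 7.75 CPM in WT and at 4.56 to 6.08 and 5.07 to 6.67 CPM in Prm1-/- males. Stromal markers gave 10.3 to 11.2 CPM in WT and spread more widely in Prm1-/- testis, from 6.10 to 14.2 CPM. There Pdgfra, the receptor that marks fibroblasts and interstitial cells, ran from 2.61 to 7.09 CPM. Spermatogonial markers gave 4.86 to 8.04 CPM and 6.34 to 8.17 CPM, with the stem cell regulators Sall4 at 1.85 to 2.50 and 2.39 to 3.55 CPM and Lin28a at 0 to 2.03 and 2.03 to 3.04 CPM.

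Genes of DNA damage and apoptosis gave 6.98, 5.70 and 0.900 CPM in WT and 4.08, 5.47 and 4.48 CPM in Prm1-/- males, so that 1 WT male stood apart from all others. Only Bcl2, which restrains apoptosis, and Pmaip1, which promotes it, were tested of this list. Bcl2 ranged from 0.923 to 2.53 CPM and from 1.67 to 2.28 CPM, and Pmaip1 from 0 to 3.33 CPM and from 2.03 to 2.82 CPM. Histone genes, of which 19 had a row and 0 were tested, gave 6.48 to 8.15 CPM in WT and 7.88 to 9.47 CPM in Prm1-/- males. Olfactory and vomeronasal receptors, of which 1836 had a row and 3 were tested, gave 66.4 to 124 CPM and 86.8 to 117 CPM.

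**Figure D5:**
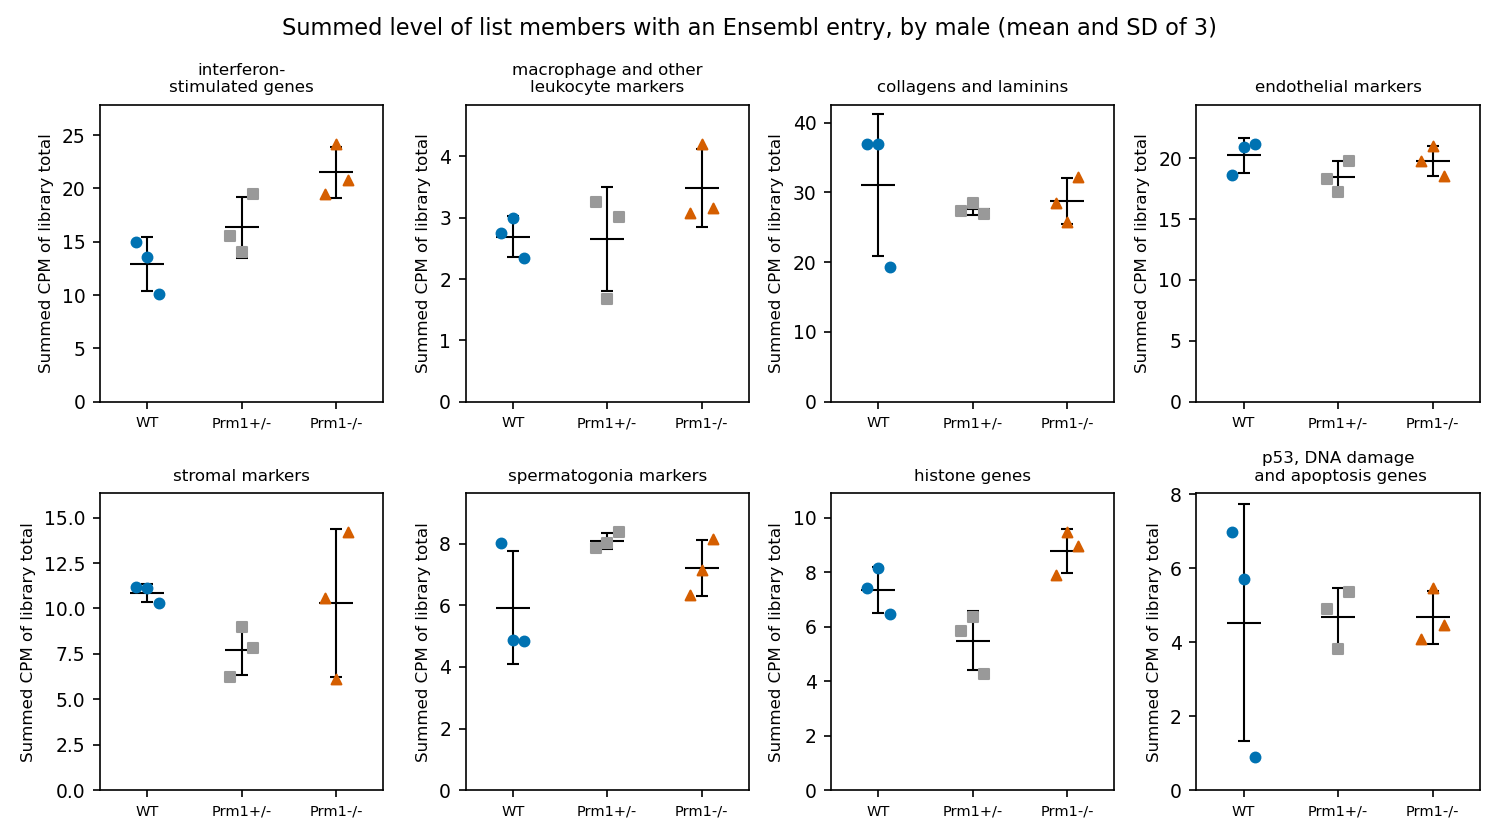
Summed CPM of library total over the members of 8 gene lists that have an Ensembl row, by genotype, with 1 symbol for each male and the mean and SD of 3 in black. The interferon list lies at 10.1 to 15.0 CPM in WT and 19.5 to 24.2 CPM in Prm1-/- males, the leukocyte markers at 2.34 to 2.99 CPM and 3.08 to 4.21 CPM, and the other 6 lists overlap.

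Of 36 tested zinc finger genes 0 were called, 2 lay wholly above WT and 2 wholly below, with a median log2 fold change of 0.13. Over all tested rows the shares without overlap were 6.25% above and 4.58% below, beside which these counts and those of the next families are to be read. Of 27 tested solute carriers 0 were called, 1 lay wholly above WT and 2 wholly below, with a median of -0.20. Of 18 tested ion channel genes 0 were called and 0 were free of overlap. The 8 tested collagens and laminins and the 5 tested chemokine, interleukin and receptor genes held 0 calls each, and their sums of 25.7 to 32.2 CPM and 42.4 to 52.2 CPM in Prm1-/- males overlapped WT sums of 19.3 to 37.0 CPM and 42.1 to 50.6 CPM.

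The rule for entering a row admitted some genes through 1 genotype. Of the 771 Ensembl genes, 15 had at least 10 counts in all 3 Prm1-/- libraries and in no WT library, and 0 had the reverse. Among MSTRG loci these numbers were 95 and 4. Only 288 Ensembl genes reached 10 counts in all 6 libraries, while 766 did so in the library of Prm1-/- male 1. Of the 25 Ensembl genes with a log2 fold change above 1, 10 were free of overlap and 13 differed over 3-fold between males of a genotype. Of the 15 below -1, 7 were free of overlap and 8 had such a spread.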

How the data were processed

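The authors mapped 50-base reads to GRCm38 with HISAT2 2.1, assembled transcripts with StringTie 1.3.3 and deposited a table of estimated counts per gene, made with the script supplied with StringTie. These deposited estimated counts are whole numbers and are not scaled for depth. The read length given to that script, the merging of assemblies and the use of strand are not given in the sources used here, so reads of overlapping genes may be split arbitrarily.

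Members and gene lists were chosen with earlier results of these data known. Rows with at least 10 counts in at least 3 of the 6 WT and Prm1-/- libraries were fitted with edgeR 4.0.16 in R 4.3.3 (glmQLFit and glmQLFTest, TMM factors, all 9 samples, genotype as the only term), with Benjamini-Hochberg adjustment over 16402 rows. A row was called at an adjusted p under 0.05 when its log2 fold change also exceeded 1 in size. The standard error is the log2 fold change divided by the square root of the F statistic. The script was run on simulated data with known fold changes, as a check of the code. The simulated spread was not matched to these data, so that run says nothing on the calls. Genes named are the 10 Ensembl genes with the smallest p in each direction, the 10 with the highest mean CPM and tested members of the lists, of which a few are not reported here. MSTRG loci named are the 2 higher and the 1 lower with the smallest adjusted p. Ensembl identifiers were matched to GENCODE vM21, of which 24131 of 24236 had a symbol. Labels name 3 individuals per genotype. Totals for all 9 libraries ran from 3681615 to 11036146 counts. Alternatives used DESeq2 1.42.0, other scalings and filters, a replicate block, thinned libraries and each male left out.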

Additional observations from a re-analysis of the deposited data

How the results depend on the processing

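The count of 29 loci higher stayed within 1.5 times, with 25 to 29 of the same loci, under RLE, upper-quartile and total scaling, no filter, filterByExpr, the adjusted p alone, thinned libraries, and a robust fit and the newer quasi-likelihood method, both chosen after seeing the data. EdgeR with 6 samples gave 36, of which 19 were among the 29. It moved to 114 in DESeq2 with 9 samples and 150 with 6 samples, both of which held all 29, and to 18 with at least 10 counts in every sample, a filter that also left 0 lower. The single lower locus became 24 and 29 in DESeq2 and 5 in edgeR with 6 samples. Ensembl genes higher became 1, Trim68, in DESeq2 with 9 or 6 samples and in the newer quasi-likelihood method. Leaving out each male gave 16 to 57 higher, with 14 to 23 of the 29 among them, 0 to 11 lower and 0 to 1 Ensembl genes in each direction, the cause of which was not tested. Replicate numbers are shared between genotypes, and the labels and methods do not say whether they mark a shared litter or day. By value the numbers did not pair the males (correlations of deviations 0.09, -0.019 and -0.137, and 1 of 6 males correlated best with its own number). With the replicate block 17 loci were higher, 16 of them among the 29, and 0 lower. Of 518 fold changes of 29 named genes and loci under the alternatives, 0 reversed, 3 lost a call (MSTRG.15223, also under the block) and 3 gained one (Trim68). The part of depth in the absence of Ensembl calls was not tested; their median level was 2.67 CPM.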
